A study of Mus musculus with 2 samples.

Results

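Long footprints found in both replicates of a mouse hippocampus DNase-seq experiment are described here. A footprint is a short stretch inside open chromatin where DNase I cut less than in the bases around it. The members were autosomal footprints of 20 bp or longer that overlapped, by at least 1 bp, a footprint of 20 bp or longer in the other replicate. There were 6012 such footprints among 249954 autosomal footprints (255536 in all) in replicate 1, and 6016 among 108891 (111355 in all) in replicate 2. Joined across replicates they formed 6002 sites. They were set against short shared footprints, under 10 bp in both replicates, of which there were 6578 in replicate 1 and 6545 in replicate 2, at 6479 sites. Both sets were chosen by length and overlap, so these are described and not tested.

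The tissue was a layer of hippocampus, not specified further, from male B6CASTF1/J mice aged 2 months, an F1 hybrid of a B6 and a CAST parent. The series held 1 group of 2 biological replicates from separate biosamples that share a donor entry, and no treatment or other tissue. Reads from both parental genomes were placed on mm10. In bulk tissue, accessibility in fewer cells and weaker accessibility per cell cannot be told apart. With 1 pair of replicates, no exact test of a difference between the footprint sets can go below p = 0.5, so every difference is given as its value in each replicate. Intervals are 95% Wilson intervals, which cover counting error alone. Both replicates contribute the same loci to the shared sets, so their close values are not 2 independent measurements of location or sequence.

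Transcription factors that stay on DNA, or that cover many bases, shield it from the nuclease and leave footprints whose length follows the bound stretch. CTCF, a protein with many zinc fingers that anchors chromatin loops with cohesin and insulates domains, covers a long core motif, and some of its fingers are known to contact a further stretch upstream of that core. RNA polymerase III genes such as tRNA genes are held by TFIIIC, which binds an A box and a B box inside the gene, and by TFIIIB, which sits just upstream of the start.

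Sequences of 3 kinds are shown because they carry the patterns below. All are from the GRCm38 (mm10) reference, 5′ to 3′ on the strand named, and the first 2 kinds are the replicate 1 footprint with 10 bases on each side. The first kind holds the CTCF core motif, whose 14 matched bases are in capitals. In 3 of these, chosen after their values were seen as those in the highest peaks with such a string, the footprint reached at least 17 bp upstream of the core in both replicates and held TGCAGT, also in capitals.
Prok2 (chr6:99804398-99804465, plus strand): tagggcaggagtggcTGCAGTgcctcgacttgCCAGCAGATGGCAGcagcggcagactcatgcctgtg
Ubash3b (chr9:41044777-41044843, plus strand): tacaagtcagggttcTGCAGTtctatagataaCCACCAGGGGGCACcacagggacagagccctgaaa
Lrguk (chr6:34041029-34041095, minus strand): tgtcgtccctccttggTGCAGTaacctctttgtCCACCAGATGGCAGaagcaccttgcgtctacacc
In the next 3, those in the highest peaks of their kind outside untranslated regions, the footprint ended within 10 bp upstream of the core in both replicates.
Kif1b (chr4:149307892-149307942, minus strand): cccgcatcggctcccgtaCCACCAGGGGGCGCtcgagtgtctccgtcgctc
Lsm11 (chr11:45945012-45945059, plus strand): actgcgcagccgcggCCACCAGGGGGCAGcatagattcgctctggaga
Fam133b (chr5:3543749-3543801, plus strand): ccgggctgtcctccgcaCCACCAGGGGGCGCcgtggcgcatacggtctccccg
The second kind lies at promoters and shows sites among those in the highest peaks for their motif, outside untranslated regions. Capitals mark the cyclic AMP response element TGACGTCA (CRE), bound by the CREB and ATF family, or the NRF1 motif GCGCATGCG, bound by nuclear respiratory factor 1, an activator of many housekeeping and mitochondrial genes.
Chd2, CRE (chr7:73537867-73537915, plus strand): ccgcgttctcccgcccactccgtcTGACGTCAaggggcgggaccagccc
Nup133, CRE (chr8:123949305-123949356, plus strand): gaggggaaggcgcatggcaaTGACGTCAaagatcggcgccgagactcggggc
Ube4a, NRF1 (chr9:44965650-44965695, plus strand): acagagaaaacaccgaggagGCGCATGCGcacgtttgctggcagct
Rab1a, NRF1 (chr11:20201232-20201275, plus strand): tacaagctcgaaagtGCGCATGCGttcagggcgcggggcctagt
The third kind lies at tRNA genes and runs from 60 bases before to 90 bases into the gene, with the replicate 1 footprints in capitals.
n-TTagt9, tRNA-Thr (chr7:35234754-35234903, minus strand): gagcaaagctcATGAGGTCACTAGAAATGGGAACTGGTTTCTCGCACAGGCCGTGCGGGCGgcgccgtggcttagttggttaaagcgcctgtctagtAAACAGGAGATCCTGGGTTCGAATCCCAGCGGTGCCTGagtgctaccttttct
n-TEttc6, tRNA-Glu (chr14:76152714-76152863, plus strand): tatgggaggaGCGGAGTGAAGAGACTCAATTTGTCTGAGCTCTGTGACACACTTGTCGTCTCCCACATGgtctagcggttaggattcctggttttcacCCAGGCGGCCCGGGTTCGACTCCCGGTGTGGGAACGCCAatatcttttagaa

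The long shared footprints were longer in replicate 1 than in replicate 2. Their median length was 31 bp (quartiles 27 and 37, longest 67) in replicate 1 and 26 bp (quartiles 22 and 30, longest 64) in replicate 2. Among 6026 overlapping pairs, the replicate 1 footprint was the longer in 78.7%, and the replicate 2 footprint lay wholly within it in 65.8%. Centres lay within 3 bp of each other in 64.1% of pairs, and both ends matched exactly in 167 pairs. Only 6012 of the 33252 autosomal footprints of 20 bp or longer in replicate 1 were members, against 6016 of 7200 in replicate 2. Replicate 2 thus limits which loci qualify, and how much of the gap reflects sequencing depth was not tested. Sites whose shorter footprint measured 20 to 21 bp, just inside the length limit, lay at start sites in 47.6% of footprints in both replicates and had median host peak heights of 4.52 and 2.37. Sites whose shorter footprint measured 18 to 19 bp, just outside it, did so in 53.0% of footprints in both replicates, with heights of 4.52 and 2.56.

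Taken as a whole, long shared footprints lay away from promoters more often than short ones. Within 500 bp of the start of a protein-coding transcript were 35.7% of long footprints (interval 34.4 to 36.9) against 50.5% of short ones (49.3 to 51.7) in replicate 1, and 35.6% (34.4 to 36.8) against 50.6% (49.4 to 51.8) in replicate 2. The long share was the lower of the pair on 19 of 19 autosomes in both replicates. This location was not common to all members. Of members with at least 12 of the 14 letters of the CTCF core, described below, 11.4% lay at start sites in both replicates. Members with fewer letters and not at a tRNA gene lay mostly at start sites. In replicate 1, 1742 lay there and 770 elsewhere, and in replicate 2, 1742 and 788. Intergenic positions held 36.7% of long footprints in both replicates, against 23.6% of short ones in replicate 1 and 23.5% in replicate 2. Introns held 23.1% and 23.2% of long footprints in replicates 1 and 2, against 20.9% and 20.8% of short ones, and exons held 4.54% and 4.51% against 5.03% and 5.07%. The exon intervals overlap in both replicates. More than 2500 bp from every start lay 56.6% of long footprints and 40.2% of short ones in both replicates. The median site lay 5644 bp from the nearest protein-coding start for long sites and 478 bp for short ones. The direction depends on asking for both replicates: for all footprints of replicate 1, shared or not, the long share at start sites was 5.36 percentage points above the short share, and for replicate 2 alone it was 4.13 points below, against a mean of 14.9 points below (SD 0.08, n = 2) for shared footprints.

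**Figure D1:**
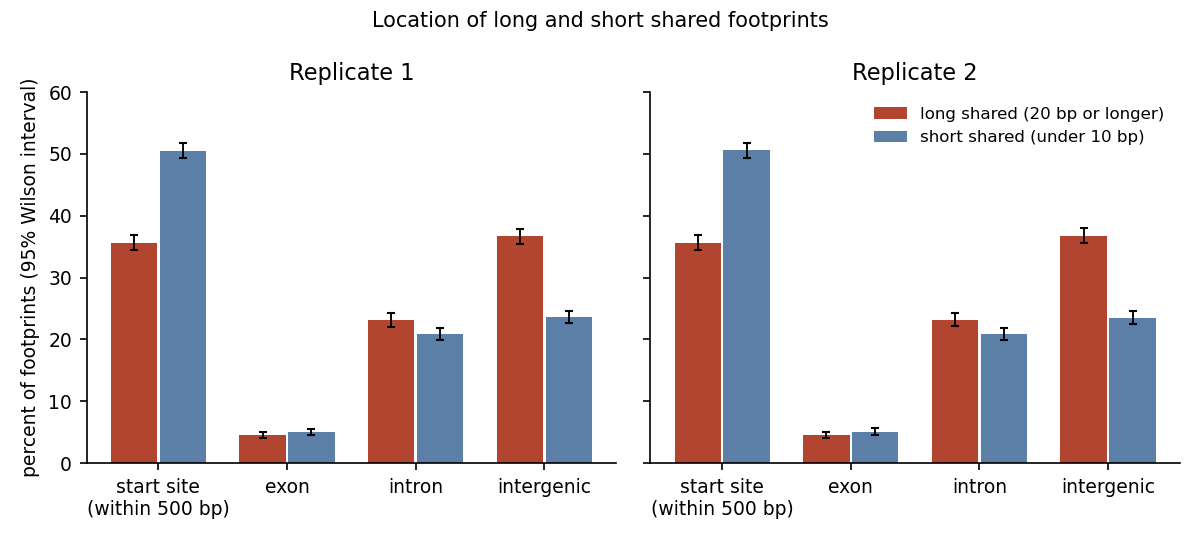
Percent of long shared (red) and short shared (blue) footprints in 4 location classes, in each replicate, with 95% Wilson intervals as error bars. Long footprints make up 35.7% and 35.6% at start sites, below the short ones at 50.5% and 50.6%, and stand above them in the intergenic class.

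The peaks that held long shared footprints were taller. Their median height, in the authors' signal units, was 4.61 for long footprints against 2.36 for short ones in replicate 1, and 2.29 against 1.70 in replicate 2. These are log2 ratios of 0.97 and 0.43, a mean of 0.70 (SD 0.38, n = 2), and the long median was the higher on 19 of 19 autosomes in both replicates. All deposited peaks together had a median of 0.663 in replicate 1 and 0.936 in replicate 2. Among the tallest 10% of peaks lay 80.9% of long footprints that were inside a peak against 39.97% of short ones in replicate 1, and 40.3% against 26.2% in replicate 2. The height difference appeared at promoters and away from them. At start sites the medians were 7.05 for long and 3.85 for short footprints in replicate 1, and 3.80 and 2.58 in replicate 2. Beyond 2500 bp from every start they were 3.79 and 1.55 in replicate 1, and 1.73 and 1.11 in replicate 2. Long footprints also lay nearer the middle of their peak, at a median of 9 bp from its centre against 48 bp for short ones in replicate 1, and 17 bp against 54 bp in replicate 2. Against shared footprints of 10 to 19 bp the log2 height ratio was 0.24 in replicate 1 and -0.10 in replicate 2, so the direction differed between replicates. Within the shorter peak list of each sample the log2 ratio of long over short was smaller, at 0.54 and 0.18 (mean 0.36, SD 0.26, n = 2). The part that peak height plays in footprint length was not tested.

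**Figure D2:**
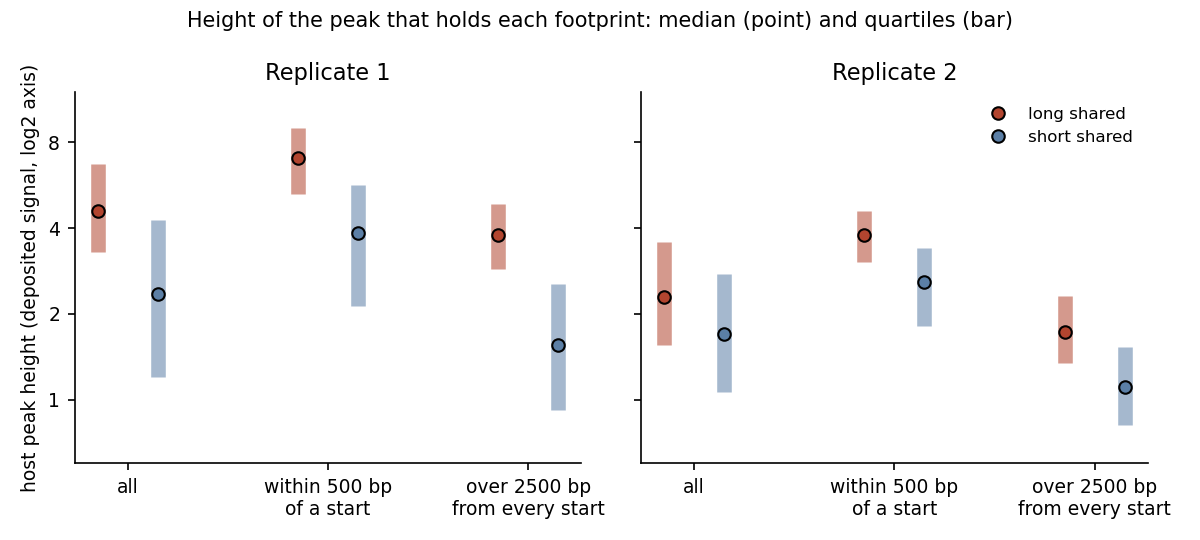
Height of the host peak (deposited signal, log2 axis) for long shared (red) and short shared (blue) footprints in each replicate, as medians (points) and quartiles (bars), for all footprints, those at start sites and those over 2500 bp away. Long medians stand above short ones in every pair, as at start sites in replicate 1 with 7.05 against 3.85.

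The CTCF core, shown first above, was the most frequent of the 24 motifs among long shared footprints. Searched on both strands in the 50 bp around each footprint centre, all 14 letters of the core matched in 18.6% of long footprints against 0.26% of short ones in replicate 1, and in 18.5% against 0.37% in replicate 2. The same core occurred in 2.00% and 2.59% of all autosomal footprints in replicates 1 and 2, and in 0.335% of 32851 RefSeq promoter windows. Promoter windows, here and below, were not matched in width to the 50 bp windows of footprints, so their shares are not directly comparable. In windows 100 bp to either side of the long footprints the core occurred in 0.05% and 0.04%. Allowing 2 mismatches, a setting chosen after seeing the data, at least 12 of 14 letters matched in 56.4% of long footprints (55.1 to 57.6) against 4.44% of short ones (3.97 to 4.96) in replicate 1. The values in replicate 2 were 56.1% (54.9 to 57.4) against 4.75% (4.26 to 5.29), and the windows beside long footprints gave 1.89% and 1.88%. Beyond 2500 bp from every start the looser match was found in 79.7% and 79.3% of long footprints, against 5.83% and 6.39% of short ones. At start sites it was found in 18.06% and 18.03% of long footprints, against 3.22% and 3.42% of short ones. The long share was the higher on 19 of 19 autosomes in both replicates. A match describes letters and does not show that CTCF was bound.

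Footprint length and the CTCF match varied together, most plainly in replicate 1. There, 14.6% of footprints of 20 to 24 bp matched at least 12 letters, 52.2% of 25 to 29 bp, 74.7% of 30 to 34 bp, 37.8% of 35 to 39 bp, 70.5% of 40 to 49 bp and 33.0% of 50 bp or more. The share was high in 2 separate length ranges with a low one between them. In replicate 2 the same bins gave 48.5%, 64.4%, 62.8%, 51.9%, 60.8% and 12%, the last over 25 footprints. Start-site location ran the other way in replicate 1, at 69.8% for 20 to 24 bp, 24.7% for 30 to 34 bp and 21.5% for 40 to 49 bp.

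**Figure D3:**
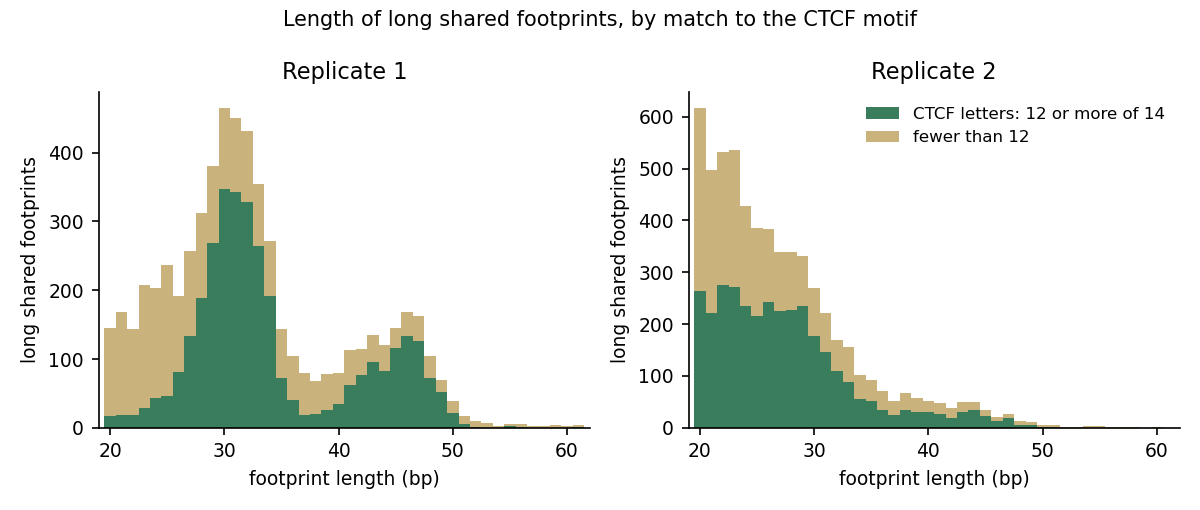
Number of long shared footprints at each length (bp) in each replicate, split into those with at least 12 of the 14 CTCF letters (green) and the rest (tan). Replicate 1 has a main group near 31 bp and a smaller one in the 40 to 49 bp range, of which 70.5% match the motif, and replicate 2 is weighted towards 20 to 29 bp.

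The 2 lengths corresponded to 2 positions of the upstream edge of the footprint, read on the strand of the motif. In replicate 1, footprints of 30 to 34 bp ran a median of 6 bp upstream and 12 bp downstream of the 14-base core, while those of 40 to 49 bp ran 22 bp upstream and 9 bp downstream. In replicate 2 the 40 to 49 bp footprints ran 21 bp upstream and 9 bp downstream. Of the footprints with the looser match, 923 in replicate 1 (27.2%) and 388 in replicate 2 (11.5%) had an edge at least 17 bp upstream, and 2334 (68.9%) and 2543 (75.3%) had one at 0 to 10 bp. Of the far-edge footprints of replicate 2, 88.7% paired with a far-edge footprint of replicate 1. In the other direction the edges differed more often than not: far-edge footprints of replicate 1 paired with a far edge in replicate 2 in 344 cases (37.7%), with a near edge in 440 (48.2%) and with another edge in 128 (14.04%). The far and near groups lay at start sites in nearly equal shares, 10.1% each in replicate 1, and 10.05% and 10.97% in replicate 2. The cut between far and near was set after seeing the distribution.

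**Figure D4:**
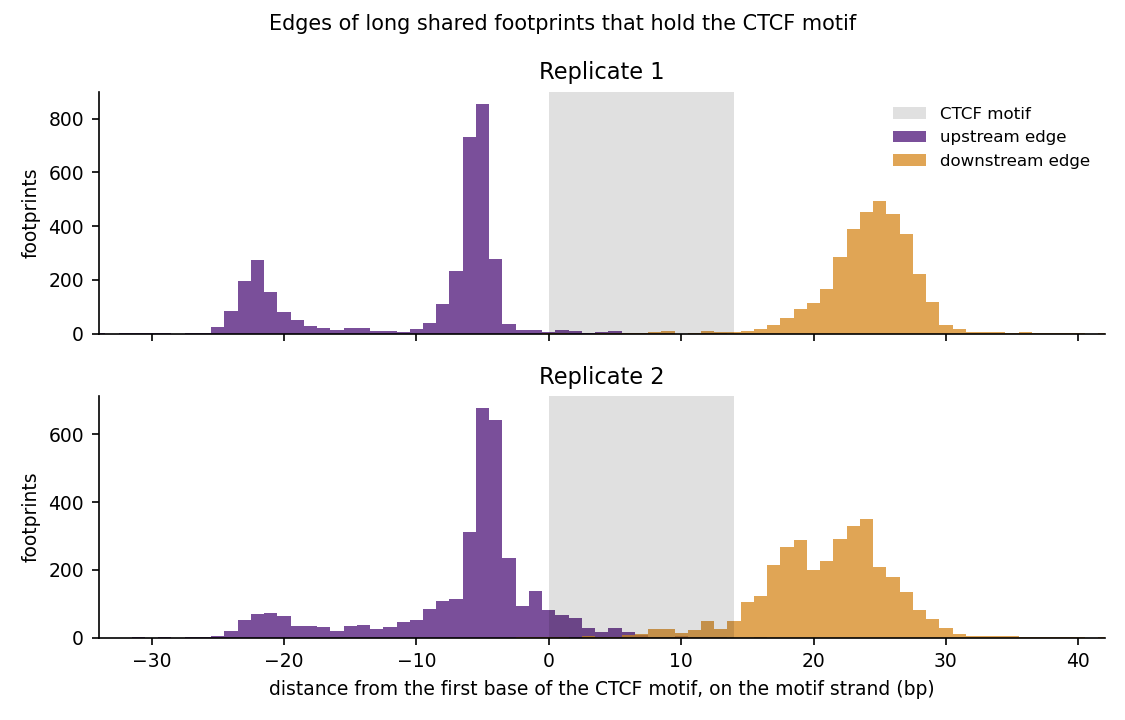
Positions of the upstream (purple) and downstream (orange) edges of long shared footprints with at least 12 CTCF letters, in bp from the first base of the motif on its strand, with the motif shaded. The upstream edge has a main group at 5 bp and, in replicate 1 above all, a second one at 22 bp, while the downstream edge has quartiles of 9 and 12 bp past the motif in replicate 1, and 4 and 10 bp in replicate 2.

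The bases under the far edge also differed. In the 30 bases before the core, the string TGCAGT was present on the motif strand in 20.2% of far-edge footprints (17.7 to 22.9) against 3.64% of near-edge ones (2.96 to 4.48) in replicate 1, and in 25.3% (21.2 to 29.8) against 5.39% (4.58 to 6.33) in replicate 2. Counting back from the first base of the core as 0, G at position -16 was found in 81.7% of far-edge and 37.7% of near-edge footprints in replicate 1, and in 81.7% and 44.8% in replicate 2. At position -12, T was found in 82.8% and 41.1% in replicate 1, and in 82.5% and 47.4% in replicate 2. At position -10, C was found in 78.8% and 40.6% in replicate 1, and in 80.2% and 46.5% in replicate 2. All 14 core letters were matched less often by far-edge footprints, at 23.2% against 37.96% of near-edge ones in replicate 1, and 19.3% against 36.8% in replicate 2. The far-edge sites printed above, nearest to Prok2, Ubash3b and Lrguk, had edges 22 or 23 bp upstream in replicate 1 and 17 to 22 bp in replicate 2. The string and the positions were picked after seeing these sequences, so they are a description.

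A second group of long shared footprints lay at promoters without a CTCF match. Those within 500 bp of a start, with fewer than 12 CTCF letters and not at a tRNA gene, made up 28.98% of members in replicate 1 and 28.96% in replicate 2. Their host peaks had median heights of 7.20 and 3.89 in replicates 1 and 2, against 3.94 and 1.78 for footprints with the CTCF match, and their GC content was 67.3% and 67.2% against 59.3% in both. The CRE occurred in 3.04% of long footprints against 0.365% of short ones in replicate 1, and in 3.01% against 0.367% in replicate 2. Windows beside the long footprints held it in 0.225% and 0.216%, and all promoter windows, not matched in width, in 1.79%. Of long footprints with the CRE, 91.3% and 91.2% lay at start sites, with median host heights of 7.57 and 3.86. Limited to start sites, the CRE was in 7.79% and 7.71% of long footprints, against 0.572% and 0.574% of short ones.

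The NRF1 motif was in 1.78% and 1.76% of long footprints, against 0.578% and 0.596% of short ones. Promoter windows, again not matched in width, held it in 1.75%. In shared footprints of 10 to 19 bp it was at least as frequent, at 2.00% and 2.03% with intervals that overlap those of the long ones, whereas the CRE was in 0.718% and 0.724% of those. At start sites it was in 4.34% and 4.30% of long footprints, against 0.933% and 0.937% of short ones. NRF1 footprints had a median length of 23 bp in both replicates, at the low end of the range. The NFI palindrome, the site of nuclear factor I proteins that act in neural and glial genes, was in 0.865% and 0.864% of long footprints, against 0.091% and 0.092% of short ones. Only 28.8% of the NFI footprints lay at start sites in both replicates. Over all locations together, the GC box GGGCGGG, bound by SP and KLF factors, differed little. It was in 8.23% of long footprints in both replicates, against 7.54% and 7.73% of short ones. The pooled shares hide a difference by location. Of long footprints at start sites, 20.11% and 20.04% held the GC box, against 12.28% and 12.63% of short ones. More than 2500 bp from every start the long share was the lower, at 1.265% and 1.322% against 1.93% and 1.979%. The neuronal E-box CAGATGG was in 4.29% and 4.32% of long footprints, against 3.30% in both replicates for short ones. Beyond 2500 bp from every start the shares were nearly equal, at 6.65% and 6.70% of long footprints, against 6.66% and 6.58% of short ones. These E-box letters can lie within the CTCF core, and 67.4% and 66.2% of the long footprints that held them also matched at least 12 CTCF letters. The AP-1 motif TGANTCA was less frequent in long footprints, at 0.566% and 0.532% against 1.16% in both replicates for short ones, and no long footprint held the REST motif, which marks neuronal genes silenced outside neurons. The REST motif was also rare elsewhere, in 1 short footprint of each replicate and in 0.0288% and 0.0129% of all autosomal footprints.

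tRNA genes formed another group, examined after it had been noticed among the members. Within 100 bp of one of 386 autosomal tRNA genes (RefSeq, GRCm38) were 113 long footprints in replicate 1 (1.88%, 1.57 to 2.26) and 111 in replicate 2 (1.85%, 1.53 to 2.22), against 21 (0.319%, 0.209 to 0.488) and 23 (0.351%, 0.234 to 0.527) short ones. Of all autosomal footprints, 0.317% in replicate 1 and 0.538% in replicate 2 lay there. The long ones fell at 90 genes in each replicate, 89 of them the same genes. Of the long footprints there, 73 in each replicate lay just upstream, from a median of 48 bp before the gene to 1 bp into it in replicate 1, and from 47 to 8 bp before it in replicate 2. Inside the gene lay 33 in each replicate, from base 38 to base 76 at the median in replicate 1 and from 43 to 69 in replicate 2. The letters GGTTCGA of the B box, searched on the gene strand, were in 31 of the 33 inside footprints in replicate 1 and in 26 of 33 in replicate 2. They were in 226 of the 386 genes, a count over all genes and not over those with inside footprints. None of the 73 upstream footprints held them, which says little, since these ended at most 14 bp into the gene. In replicate 1, 19 genes had both an upstream and an inside footprint, such as the tRNA-Thr and tRNA-Glu genes printed above. In replicate 1 these measured 50 and 38 bp at n-TTagt9, in a peak of height 9.44, and 59 and 39 bp at n-TEttc6, in a peak of height 8.44. Many tRNA genes are near-identical copies, and the placing of reads that match several copies is unstated (not given in the sources used here).

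**Figure D5:**
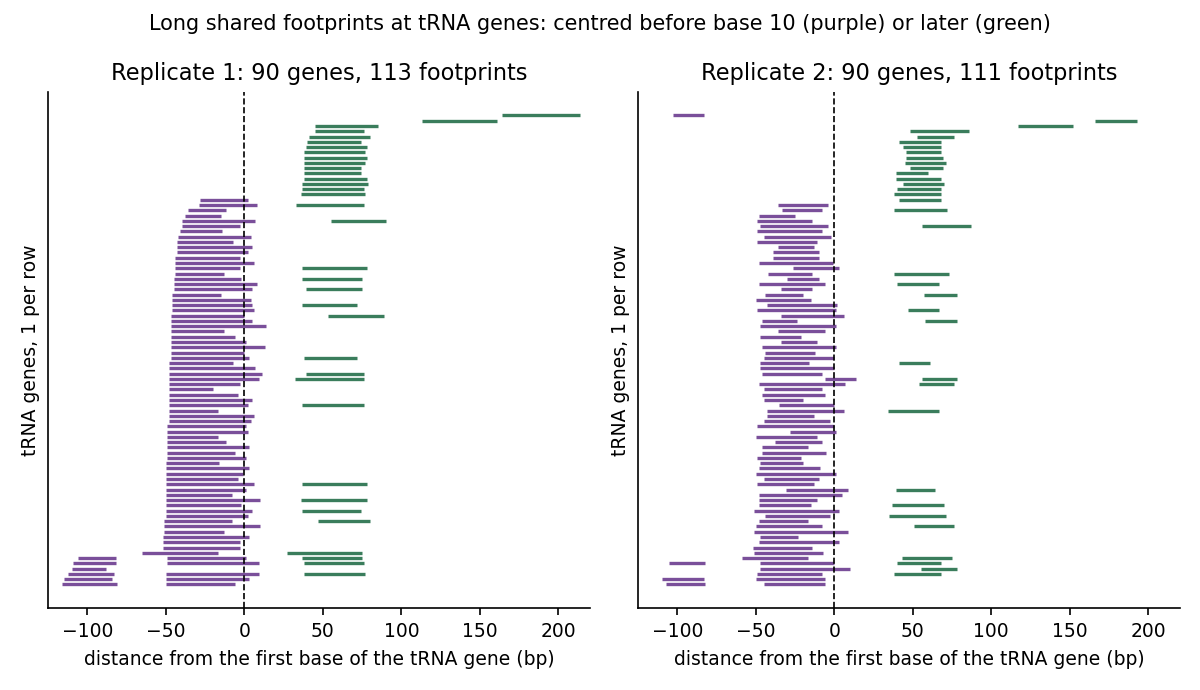
Long shared footprints at tRNA genes in each replicate, 1 gene per row, as bars in bp from the first base of the gene (dashed line), centred before base 10 (purple) or later (green). In both replicates the bars fall mainly into a column just upstream of the gene and a column inside it, 73 and 33 footprints in each replicate.

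The 10 longest sites, ranked by the shorter of their 2 footprints (51 to 60 bp), include none that matched 12 CTCF letters. Of these 10, 5 lay at a tRNA gene, against 113 of all 6002 sites; their nearest protein-coding genes were Eef2k, Mettl26, Polg, Zfp213 and 1810010H24Rik. The site nearest to Eef2k measured 61 bp in replicate 1 and 60 bp in replicate 2, at chr7:120835551-120835611, 7250 bp from its start. The other 5 were nearest to Ube4a, Rbm27, Cdh20, Zfp609 and Ccdc66. At Ube4a, a ubiquitin chain elongation factor, a footprint of 61 bp in replicate 1 and 58 bp in replicate 2 lay 6 bp from a start, in the same peak as the NRF1 footprint printed above, with heights of 14.5 and 5.97. The 10 sites with the highest host peaks were nearest to Limd1, Igf2bp3 (2 sites in 1 peak), Kpna1 (2 sites in 1 peak), Txndc11, Il31ra, Gm15319, Gm10722 and Rsph1. Their heights ran up to 37.0 in replicate 1 and 40.5 in replicate 2, and none matched 12 CTCF letters. The upper quartile for all long footprints was 6.71 in replicate 1 and 3.57 in replicate 2. The placing of reads that match several loci is unstated, and its part in these heights was not tested. The Limd1 site lay in an exon of Lars2, 16780 bp from the Limd1 start. The Txndc11 site lay inside Zc3h7a, 9624 bp from the Txndc11 start. The Gm10722 peak had a height of 30.3 in replicate 1 and 3.52 in replicate 2, the widest gap of the 10. Of these 10, only Rsph1, a radial spoke protein of cilia, had its site within 500 bp of a start, 19 bp away, with heights of 18.4 and 10.1.

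The 6002 long sites had 4662 different nearest genes, and 3630 of these genes had a single site. Jarid2, a partner of the Polycomb repressive complex, and Klrb1c, a natural killer cell receptor gene, each had 7, and Btn1a1 and Ubash3b each had 6. All 6 sites of Ubash3b matched at least 12 CTCF letters, and all 6 of Btn1a1 lay at tRNA genes. None of the 7 at Jarid2 and 1 of the 7 at Klrb1c matched CTCF. Abr, Arhgef10l, Camta1, Gprc5b, Pdia4 and Ptma had 5 sites each, with 1 to 4 CTCF matches. A gene with a long body or with wide intergenic flanks has more room to be nearest.

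At gene starts, long shared sites were counted at 7 of 13 housekeeping genes and at 0 of 18 excitatory neuron genes. Of 20780 autosomal protein-coding genes, 9.15% were the nearest gene of a long site within 500 bp of a start, against 13.4% for a short site. Short sites were found at 3 of the housekeeping genes, and among immediate-early genes, the first wave of genes that neuronal activity switches on, 7 of 18 had each. Among ribosomal protein genes 9 of 41 had a long site against 12 with a short one, and among cilia genes 10 of 40 against 11. Among genes of CTCF, cohesin and their partners the counts were 4 of 15 against 3, and among mitochondrial genes 5 of 28 against 6. Pan-neuronal genes had 1 of 23 with a long site against 6 with a short one, and excitatory neuron genes had 7 with a short site. Glutamate receptor genes had 1 of 18 against 5. Markers of interneurons (17 genes) had no site of either kind. Markers of astrocytes (13), oligodendrocytes (14), microglia (14) and vascular cells (14) had no long site, against 1, 2, 1 and 1 short ones. The liver (16) and muscle (15) lists, of genes that mark other organs, had no site of either kind. Lists this small allow no more than a count.

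Named promoters show the range. Among immediate-early genes, Jun, a subunit of AP-1, had a footprint of 37 bp in replicate 1 and 29 bp in replicate 2 in peaks of height 11.4 and 4.27, 149 bp from a start. Egr1, a zinc finger factor, had one of 32 and 25 bp that matched 12 of the 14 CTCF letters (heights 9.36 and 4.40). Jund, another AP-1 subunit, had one of 26 and 31 bp with a CRE (7.57 and 5.002). At Hsp90ab1, a chaperone gene, 21 bp footprints in both replicates lay 26 bp from a start (9.70 and 5.68). Eef2, a translation elongation factor, had 26 and 27 bp (9.47 and 4.30), and Ywhaz, a 14-3-3 protein, had 34 and 33 bp with a CRE (9.79 and 3.86). The ribosomal genes Rpl23, Rplp0 and Rps12 had host heights of 11.8, 10.3 and 8.92 in replicate 1, and 5.29, 5.41 and 5.30 in replicate 2. Of the neuronal lists, Unc13a, a synaptic vesicle priming protein, had a footprint of 23 and 24 bp in lower peaks (4.87 and 3.52), 19 bp from a start. Grik4, a kainate receptor subunit, had one of 32 and 25 bp (4.24 and 2.58) at 427 bp, which also matched 12 of the 14 CTCF letters.

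Among cilia genes, Foxj1, which switches on motile cilia genes, had a footprint of 26 and 30 bp (7.36 and 3.23), Tulp3, a transporter of receptors into cilia, one of 27 and 31 bp (8.08 and 3.74), and Rfx2, a factor of cilia genes, one of 21 and 20 bp (8.44 and 3.001). Smc3, a cohesin subunit, had 22 bp in both replicates (8.86 and 6.53), Yy1, a zinc finger factor, had 23 and 34 bp (7.03 and 4.37), and Zfp143, a promoter-binding zinc finger factor, had 22 and 48 bp (13.6 and 5.68). Cox6c, a subunit of mitochondrial complex IV, had one of 39 and 30 bp (8.79 and 4.14). A site of Polg, the mitochondrial DNA polymerase, lay in the tRNA-Arg gene n-TRtcg5 (heights 10.6 and 6.57). Another Polg site in the same peak, of 57 and 55 bp, lay mostly upstream of that tRNA gene, 36 bp from a Polg start. Polg had long sites only at a tRNA gene, and without Polg 4 of the 28 mitochondrial genes had a long site.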

How the data were processed

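DNase-seq peaks, footprints and false discovery rates (FDR) of 2 hippocampus samples were used as deposited, on mm10 per the labels. The aligner, callers and settings stay unnamed (not given in the sources used here). Peak height was the signal value that the authors deposited for each peak, with an unstated scaling. The deposited footprints carried the constant 0.01 in the p-value column and were used by position only. FDR (q-value) intervals of the authors were read at footprint centres, and the read depth of neither sample is given.

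Members, the 16 gene lists and the 24 motifs were chosen with earlier results of these data known. Overlaps, distances to GENCODE M21 protein-coding starts, host peaks (longer list of each sample) and motif matches (exact, both strands, in RefSeq GRCm38 sequence) were computed in Python 3.11.15 with numpy 2.4.6, pandas 2.3.3 and scipy 1.17.1. They were tested on simulated footprints and planted motifs. Peak and site positions fitted the chromosome lengths of the annotation's assembly, and tRNA genes came from RefSeq. Start sites took precedence over exons, exons over introns, and introns over intergenic positions, all by protein-coding genes.

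Genes named are those nearest to the 10 longest sites, the 10 sites in the highest peaks and the sites of each motif in the highest peaks, the 10 genes with most sites, and up to 3 genes of each list by height. Prok2, Lrguk and Nup133 fall outside that rule, and printed sequences leave out untranslated regions. One gene that the rule took is not reported here. X and Y footprints were left out of the members. The alternatives tried were other length limits, overlaps, peak lists, windows and reference sets, and each replicate alone.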

Additional observations from a re-analysis of the deposited data

How the results depend on the processing

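No paired analysis was possible because the series holds 1 group. The mean log2 height ratio kept its sign in all 10 alternatives, but against footprints of 10 to 19 bp it was -0.10 in replicate 2. The CTCF difference kept its sign in all 13. Main values, long minus short, were 6002 sites, -14.9 points at start sites, 0.70 log2 for height, 18.2 points for CTCF, -0.21 points for GC in 50 bp and -0.73 points for soft-masked bases. Leaving out either replicate, with no overlap asked for, gave 7200 to 33252 footprints, -4.13 to 5.36 points at start sites (5.36 without replicate 2), 0.70 to 1.59 for height, 10.9 to 14.5 for CTCF, 1.72 to 3.12 for GC and -0.46 to -0.090 for soft-masked bases. A limit of 18 bp gave -11.1 (start sites), 16.1 (CTCF) and 0.23 (GC). A limit of 25 bp gave 3169 sites, -21.9 (start sites), 21.6 (CTCF), -1.11 (GC) and -1.03 (soft-masked). Reciprocal overlap of 50% gave -15.9 (start sites), 18.7 (CTCF) and 0.076 (GC). Adding X and Y gave -15.2 (start sites). The shorter peak list gave -25.1 (start sites), 0.36 (height), -2.05 (GC) and 0.075 (soft-masked). Against shared footprints of 10 to 19 bp the values were -26.1 (start sites), 0.068 (height), 17.95 (CTCF), -2.78 (GC) and -0.17 (soft-masked). With short footprints weighted to the members' host heights they were -32.6 (start sites), 18.7 (CTCF), -2.57 (GC) and 0.13 (soft-masked). Only distal footprints gave 28.1 (CTCF) and 2.99 (GC). Start windows of 200 and 2000 bp gave -10.2 and -16.9, a motif window of 100 bp gave 17.7, a GC window of 100 bp gave -1.63, and counting any soft-masked base gave 1.67. Matching 12 of 14 CTCF letters, chosen after seeing the data, gave 51.6. The GC and soft-masked differences changed sign and no direction is given for them. The cause of these changes was not tested. The SD between replicates is small where both hold the same loci, so most values moved by more than it. Read depth is not given, so what it limits was not tested.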

Other observations

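Among long shared footprints, 97.9% in replicate 1 and 96.2% in replicate 2 lay inside a deposited peak, against 88.9% and 89.0% of short ones. Host peaks with a long footprint made up 4.20% of 132685 peaks in replicate 1 and 9.11% of 59880 in replicate 2. The median FDR at the footprint centre was 2.70e-34 for long footprints against 2.52e-15 for short ones in replicate 1, and 5.66e-10 against 1.83e-06 in replicate 2. These rates come from the same samples as the footprints, so the difference is a description and not separate support.

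By autosome, the density of long footprints in replicate 1 was highest on chromosome 11, with 517 (4.24 per Mb), and lowest on chromosome 3, with 265 (1.66 per Mb). Within 100 bp of RefSeq snRNA, miRNA and snoRNA genes lay 0, 4 and 1 long footprints in each replicate, against 2, 8 and 1 short ones. These are shares of 0%, 0.067% and 0.017% of long footprints in both replicates. Of all autosomal footprints, 0.024% and 0.023% lay near snRNA genes, 0.076% and 0.114% near miRNA genes, and 0.024% and 0.012% near snoRNA genes, in replicates 1 and 2. On X and Y, outside the set, 61 and 2 footprints of replicate 1 met the same length and overlap rule.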
